A study of Homo sapiens with 6 samples.

Results

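The genes described here encode the machinery that displays intracellular peptides on MHC class I molecules. They are HLA-B, HLA-C, HLA-E, B2M, TAP1, TAP2, TAPBP and NLRC5, chosen by name for their known role, with earlier results of these data known, and all 8 were found among the 58302 genes of the RIP-seq expression table. In each of 2 colorectal cancer (CRC) lines, SW480 and DLD-1, RNA bound by the acetyltransferase NAT10 was recovered by RNA immunoprecipitation (RIP-seq), RNA carrying N4-acetylcytidine (ac4C) was recovered with an ac4C antibody (acRIP-seq), and total RNA was sequenced as Input. Both are established epithelial lines grown from colorectal tumours, and the cells were wild-type and untreated. The study describes both lines as p53 mutant, so wild-type does not extend to that gene. Each of the 6 groups holds 1 library, so no value has a replicate and no test was made. Errors are counting errors from reads recovered from the FPKM values (fragments scaled by transcript length and library size), they leave out all biological spread, and PCR copies are not independent molecules. In bulk libraries, fewer cells with an RNA and less RNA per cell cannot be told apart.

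An MHC class I molecule is a heavy chain, encoded by genes such as HLA-B, HLA-C and HLA-E, paired with the invariant light chain β2-microglobulin from B2M. TAP1 and TAP2 form the transporter that carries peptides from the cytosol into the endoplasmic reticulum, and tapasin, encoded by TAPBP, holds empty class I molecules at this transporter. NLRC5 is a transcriptional activator of these genes, and interferon gamma is a known inducer of the whole pathway, which lets cytotoxic T cells recognise tumour cells.

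The upstream sequences are shown because class I genes share regulatory elements. A link between these sequences and the levels in the libraries was not tested. RefSeq promoter windows (GRCh38.p14) were given for 6 of the 8 genes. HLA-E and NLRC5 are named only. The 250 bases before the start of HLA-B (chr6:31357180-31357429, minus strand), HLA-C (chr6:31272093-31272342, minus strand), B2M (chr15:44711267-44711516, plus strand) and TAP1 (chr6:32853705-32853954, minus strand, the first of its windows) read as follows, 5′ to 3′ along the gene. Capitals mark matches on either strand to CCAAT (letters of the Y box core, not by themselves a Y box) and to GAAANNGAA or GAANNGAAA (forms of an interferon-stimulated response element). Letters in more than 1 match are capitalised once.
HLA-B: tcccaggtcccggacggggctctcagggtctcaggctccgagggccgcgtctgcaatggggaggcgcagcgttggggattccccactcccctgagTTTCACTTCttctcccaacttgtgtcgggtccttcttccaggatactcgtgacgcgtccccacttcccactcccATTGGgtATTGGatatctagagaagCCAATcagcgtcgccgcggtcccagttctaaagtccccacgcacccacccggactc
HLA-C: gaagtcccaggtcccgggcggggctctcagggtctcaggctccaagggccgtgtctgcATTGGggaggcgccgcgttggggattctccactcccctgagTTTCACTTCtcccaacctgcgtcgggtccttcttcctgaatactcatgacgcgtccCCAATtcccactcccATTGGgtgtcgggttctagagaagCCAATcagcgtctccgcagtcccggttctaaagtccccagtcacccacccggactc
B2M: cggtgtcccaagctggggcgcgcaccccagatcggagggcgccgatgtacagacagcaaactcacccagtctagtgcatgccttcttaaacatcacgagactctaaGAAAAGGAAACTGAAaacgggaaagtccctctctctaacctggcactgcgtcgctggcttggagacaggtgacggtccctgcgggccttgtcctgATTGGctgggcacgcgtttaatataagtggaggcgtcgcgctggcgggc
TAP1: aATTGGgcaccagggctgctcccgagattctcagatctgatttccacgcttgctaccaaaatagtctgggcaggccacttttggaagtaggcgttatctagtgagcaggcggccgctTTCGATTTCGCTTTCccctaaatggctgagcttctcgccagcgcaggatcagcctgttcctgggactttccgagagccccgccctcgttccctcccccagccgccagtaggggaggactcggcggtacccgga
These letters were chosen with the windows in view, and a match is a description and not a bound site. Over the same 250 bases of all 35116 windows in the table, CCAAT was found in 32%, GAAANNGAA in 6.88% and GAANNGAAA in 6.56%. Either form of the response element was found in 12.4%. The printed windows are those of the 6 genes that hold both CCAAT and a form of the response element. This combination was found in 4.17% of all windows and in 4 of the 7 windows of the 6 genes. The windows of TAP2 and TAPBP, not printed, hold a form of the response element and no CCAAT, and the further TAP1 window holds none of these letters. HLA-B and HLA-C hold the second form and B2M and TAP1 the first, whose matches overlap each other in B2M and in TAP1. A global alignment of the HLA-B and HLA-C windows was identical in 226 of 254 columns (89.0%), whereas HLA-B and B2M were identical in 47.2%.

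Before any ratio is read, the pairing of the libraries needs stating. Across 16196 protein-coding genes, SW480-labelled RIP had a Pearson r across genes of 0.944 with DLD-1-labelled Input and 0.871 with SW480-labelled Input, and DLD-1-labelled RIP had an r of 0.951 with SW480-labelled Input and 0.856 with DLD-1-labelled Input. KRT20, a keratin of intestinal epithelium, was listed at 0 FPKM in RIP and 29.2 in Input labelled SW480, and at 23.9 in RIP and 0.0426 in Input labelled DLD-1. Libraries are therefore named by their labels, and each ratio is given over the Input of the same label and of the other label. Solved reads totalled 25504316 (SW480) and 20957768 (DLD-1) for RIP, and 11314490 and 10769304 for Input. A separate acRIP expression table, whose unit is read as FPKM and whose depth is unknown, quantifies Inputs of the same labels again. Epithelial markers were above 1 FPKM in at least 1 Input for 8 of 8 genes, with summed levels of 789 to 2838 FPKM. The same held for 1 of 6 leukocyte markers (CD14, at 1.16 FPKM in the Input labelled SW480), 0 of 5 fibroblast and 0 of 3 endothelial markers. Summed leukocyte levels ranged from 0.0789 to 1.53 FPKM over the RIP and Input libraries, and CD3E, MS4A1 and LUM were listed at 0 in every one. The acRIP libraries have no listed levels and are not covered. In the acRIP peak list labelled SW480, 3 of 5 fibroblast markers (COL1A1, COL1A2 and DCN) hosted a peak, although none reached 1 FPKM in an Input. In the list labelled DLD-1, 0 of 5 did, and 1 of 6 leukocyte markers (CD68) hosted a peak.

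Of the classical heavy chain genes, HLA-B (ENSG00000234745, chr6:31353875-31357179) differed most between labels among the 8 genes, in Input and in RIP. Its level was 258 FPKM in RIP and 39.0 in Input labelled SW480, and 34.6 in RIP and 235 in Input labelled DLD-1. The high pair of values was thus RIP labelled SW480 with Input labelled DLD-1, and the low pair the other two libraries. In the acRIP table the Inputs were at 22.7 (SW480) and 175 (DLD-1), the same order. The Input labelled DLD-1 exceeded that labelled SW480 6.02-fold in the RIP table and 7.72-fold in the acRIP table, while RIP labelled SW480 exceeded RIP labelled DLD-1 7.47-fold. Reads behind these values were 11845 and 882 in RIP and Input labelled SW480, and 1348 and 4904 in those labelled DLD-1.

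HLA-C (ENSG00000204525, chr6:31268749-31272092), which also serves as a ligand of killer-cell receptors, stood at 227 FPKM in RIP and 177 in Input labelled SW480, and at 106 in RIP and 359 in Input labelled DLD-1. The acRIP-table Inputs were at 128 and 239. It was the most abundant of the 8 genes in both Inputs of both tables, at or above the 98.9th percentile of detected protein-coding genes in each. HLA-E (ENSG00000204592, chr6:30489509-30494194), a non-classical heavy chain that presents signal peptides to natural killer cells, was at 104 and 71.7 FPKM in RIP and Input labelled SW480, at 62.6 and 120.3 in those labelled DLD-1, and at 48.5 and 79.1 in the acRIP-table Inputs. The order of libraries was the same for all 3 heavy chain genes in the Inputs and in the RIP libraries, and the span between them was smallest for HLA-E. Heavy chain genes are near-identical over parts of their length and vary between alleles, and how reads matching several of them were assigned is not given in the sources used here, so the split among HLA genes is uncertain.

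B2M (ENSG00000166710, chr15:44711517-44718145) was at 162 FPKM in RIP and 23.3 in Input labelled SW480, and at 68.1 in RIP and 59.1 in Input labelled DLD-1. The acRIP-table Inputs were at 10.9 and 22.8. Unlike the heavy chain genes, B2M had its 2 highest values in the RIP libraries. Its level in RIP labelled DLD-1 exceeded that in the Input of the same label by 1.15-fold, on 4120 and 1916 reads, and this was beyond the counting error. Counting error does not cover the spread between the Input tables. As log2((RIP FPKM + 1) / (Input FPKM + 1)) the ratio was 0.20 (counting SE 0.039). It was 0.96 over the acRIP-table Input of the same label, scaled to the median of the RIP table.

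Of the transporter and loading genes, TAP1 (ENSG00000168394, chr6:32845209-32853704) was at 30.6 and 24.8 FPKM in RIP and Input labelled SW480, at 24.7 and 36.0 in those labelled DLD-1, and at 11.8 and 18.4 in the acRIP-table Inputs. Its RIP level labelled DLD-1 and its Input level labelled SW480 did not differ beyond counting error. TAP2 (ENSG00000204267, chr6:32821831-32838739) lay lower, at 5.77 and 2.86 FPKM in SW480-labelled RIP and Input, 4.71 and 3.25 in DLD-1-labelled RIP and Input, and 1.46 and 1.69 in the acRIP table. Both RIP values of TAP2 were above both Input values, and the Inputs did not differ beyond counting error (log2 difference -0.14, counting SE 0.098). TAPBP (ENSG00000231925, chr6:33299694-33314078) was at 77.9 and 98.6 FPKM in SW480-labelled RIP and Input, 83.5 and 89.9 in DLD-1-labelled RIP and Input, and 48.1 and 43.5 in the acRIP-table Inputs, and was the one gene of the 8 whose Input was higher in the library labelled SW480.

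NLRC5 (ENSG00000140853, chr16:56989557-57083520), the activator, was the least abundant in the Input labelled SW480 of either table. It was at 4.70 FPKM in RIP and 1.89 in Input labelled SW480, and at 1.66 in RIP and 6.96 in Input labelled DLD-1. The acRIP-table Inputs were at 0.638 and 2.46. Its order of libraries was reversed between RIP and Input as for the heavy chain genes it is known to activate. The RIP level labelled DLD-1 and the Input level labelled SW480, on 285 and 188 reads, did not differ beyond counting error.

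**Figure D1:**
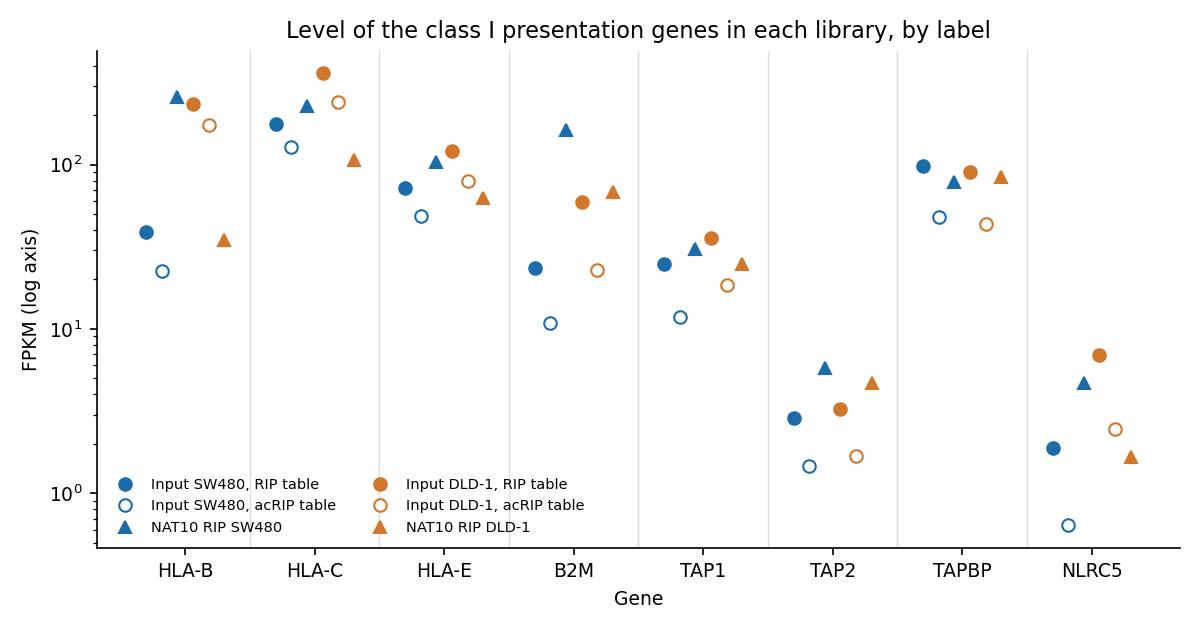
FPKM of each class I presentation gene (log axis) in each library, with circles for Inputs (filled, RIP table; open, acRIP table) and triangles for NAT10 RIP, coloured by label (blue SW480, orange DLD-1), 1 library per point. For HLA-B the RIP labelled SW480 (258) sits beside the Input labelled DLD-1 (235), and the RIP labelled DLD-1 (34.6) beside the Input labelled SW480 (39.0), whereas TAPBP lies between 77.9 and 98.6 in the RIP table.

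To ask which of these mRNAs NAT10 RIP enriched, RIP was set against Input as log2((RIP FPKM + 1) / (Input FPKM + 1)), with a change of at least 2-fold called. All 8 genes passed the filter of at least 1 FPKM in both Inputs, as 12324 genes did. Over the Input of the same label, RIP labelled SW480 was at least 2-fold above Input for 2 of 8 genes, HLA-B and B2M (15.6% of all genes tested), and at least 2-fold below it for 0 of 8 (16% of all genes). RIP labelled DLD-1 was above Input for 0 of 8 (15.1%) and below it for 3 of 8, HLA-B, HLA-C and NLRC5 (19.2%). The median log2 ratio of the 8 genes was 0.67 under the SW480 label and -0.73 under the DLD-1 label, beside 0.054 and -0.054 over all genes.

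HLA-B had a log2 ratio of 2.70 (counting SE 0.049) under the SW480 label and -2.73 (0.043) under the DLD-1 label. In the same order HLA-C was at 0.36 (0.024) and -1.75 (0.025), and HLA-E at 0.53 (0.032) and -0.93 (0.031). TAP1 was at 0.30 (0.050) and -0.52 (0.049), and NLRC5 at 0.98 (0.079) and -1.58 (0.073). These 5 of 8 genes had opposite signs under the labels, as had 43.6% of all genes tested. Of the others, B2M (2.75, SE 0.050, and 0.20, SE 0.039) and TAP2 (0.81, SE 0.080, and 0.43, SE 0.084) were above Input under both labels, and TAPBP (-0.34, SE 0.025, and -0.11, SE 0.027) was below it under both. Against same-label Inputs from the acRIP table, scaled to the median of the RIP table, TAPBP turned to 0.15 and 0.34.

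With the Inputs exchanged between labels, B2M was the one gene of 8 called. It was above Input in SW480-labelled RIP at 1.44 (SE 0.035), where 9.24% of all genes were called, and in DLD-1-labelled RIP at 1.51 (SE 0.053), where 9.36% were. Below Input were 0 of 8 genes in either (11.7% and 11.8% of all genes). HLA-B lay near 0, at 0.14 (SE 0.024) in SW480-labelled and -0.17 (SE 0.061) in DLD-1-labelled RIP. In that order HLA-C was at -0.66 and -0.73, HLA-E at -0.21 and -0.19, and NLRC5 at -0.48 and -0.12. TAP1 was at -0.22 and -0.0027, TAP2 at 0.67 and 0.56, and TAPBP at -0.21 and -0.24. HLA-B was thus the one gene of 8 with opposite signs, as were 18.3% of all genes. Medians were -0.21 and -0.14, beside 0.017 and -0.0041 over all genes. B2M was above Input over each of the Inputs of both tables, with a lowest ratio of 0.20 (DLD-1-labelled RIP, RIP-table Input) and a highest of 3.26 (SW480-labelled RIP, acRIP-table Input), both within a label. TAP2 was likewise above every Input, from 0.43 to 1.11, and HLA-C was below both Inputs of the other label in each RIP library, at -0.66 to -0.81.

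**Figure D2:**
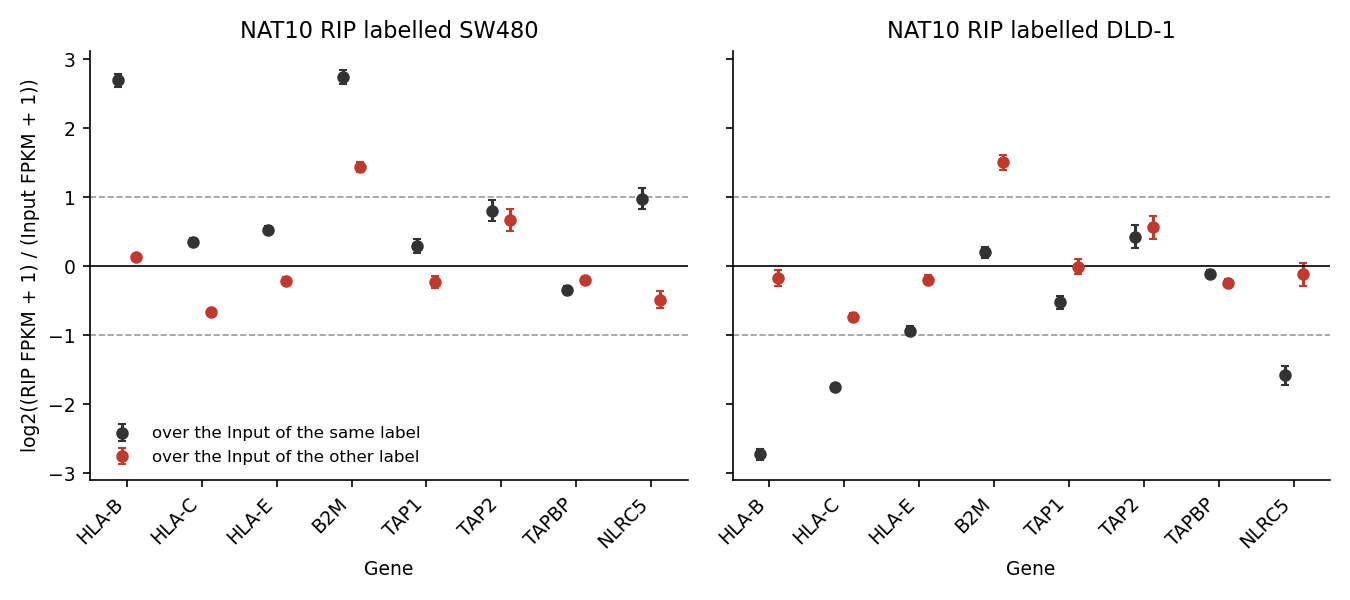
Log2 ratio of NAT10 RIP over Input for each gene, over the Input of the same label (black) and of the other label (red), with bars for 95% counting intervals, a solid line at 0 and dashed lines at 2-fold. The black points of HLA-B lie at 2.70 and -2.73 and its red points at 0.14 and -0.17, whereas the red points of B2M lie at 1.44 and 1.51.

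The libraries were next compared between labels without setting RIP against Input. In the Inputs of the RIP table, 4 of 8 genes (HLA-B, HLA-C, B2M and NLRC5) were at least 2-fold lower in the library labelled SW480 (20.9% of 17987 genes at 1 FPKM or more in at least 1 Input) and 0 of 8 were higher (15.1%). In the RIP libraries the same 4 genes were at least 2-fold higher in the library labelled SW480 (14.4% of 15143 genes) and 0 of 8 were lower (9.6%). Log2 differences, SW480 minus DLD-1, were -2.56 (SE 0.052) in Input and 2.87 (SE 0.040) in RIP for HLA-B. They were -1.02 (0.026) and 1.09 (0.024) for HLA-C, -1.30 (0.058) and 1.24 (0.026) for B2M, and -1.46 (0.085) and 1.10 (0.066) for NLRC5. HLA-E, at -0.74 and 0.72, and TAP1, at -0.52 and 0.30, had the same signs without reaching 2-fold.

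This mirrored pattern, 2-fold lower in Input and 2-fold higher in RIP for the library labelled SW480, held for 4 of 8 genes and for 10.6% of 13737 genes tested in both. It was general: of 2271 genes that were 2-fold lower in the Input labelled SW480, 1457 (64.2%) were 2-fold higher in the RIP labelled SW480. For HLA-C, HLA-E, B2M and TAPBP the RIP difference and the Input difference summed to between -0.065 and 0.074, for HLA-B to 0.31 and for NLRC5 to -0.36. The Inputs of the acRIP table gave 2 of 8 genes 2-fold lower in the library labelled SW480, HLA-B (-2.89) and NLRC5 (-1.08), with B2M at -0.99 and HLA-C at -0.90 just short of the threshold. The part of the labels in these differences was not tested.

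**Figure D3:**
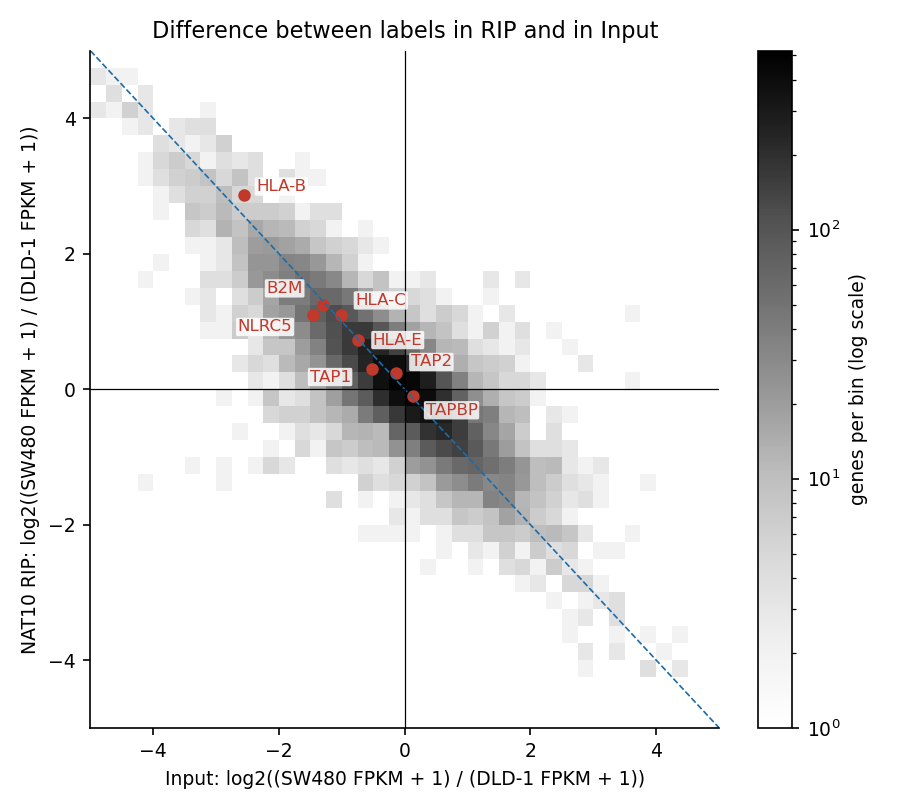
Difference between labels in NAT10 RIP against the difference in Input, both as log2((SW480 FPKM + 1) / (DLD-1 FPKM + 1)), with all 13737 genes binned in grey (log scale, values beyond the axes not drawn), the 8 genes in red and a dashed line where the differences are equal and opposite. HLA-B lies at -2.56 and 2.87, and HLA-C, HLA-E, B2M and TAPBP have summed differences between -0.065 and 0.074.

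ac4C peaks on these genes were then examined. The authors called peaks of acRIP over Input in each library and in the pooled libraries, and positions are on GRCh38. Each span runs from the first to the last base of a peak. A peak in several blocks leaves out the bases between them, and each peak is listed with 1 class, such as 3′ UTR, for all its blocks. In the list labelled SW480, 5 of the 7 genes with an Input of at least 1 FPKM in the acRIP table hosted a peak (39.5% of all such genes), with 8 peaks on HLA-B, HLA-E, B2M, TAP1 and TAPBP. In the list labelled DLD-1, 3 of 8 genes hosted a peak (41.7%), with 5 peaks on HLA-E, TAP2 and TAPBP. Of protein-coding genes at the same level, 50.6% and 53.5% hosted a peak. HLA-C and NLRC5 had no peak in any of the 3 lists, although HLA-C was the most abundant of the 8 in the Inputs.

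The HLA-B peak of the list labelled SW480 (chr6:31353897-31354497, 419 bases in 2 blocks, minus strand, annotated to the 3′ UTR) had the highest fold over Input of any on these genes, 773, which was rank 96 of 9536 peaks by fold, with a p listed as 0. In the pooled list the peak over the same 3′ end (chr6:31353897-31354286) had a fold of 5.75 and a p of 1e-108, and HLA-B had no peak in the list labelled DLD-1. The HLA-B Input of the acRIP table was 7.72-fold lower in the library labelled SW480 than in that labelled DLD-1, and the part of the Input level in the listed fold was not tested. Of the other peaks, the one on B2M (chr15:44712786-44712966, plus strand, annotated as exon) had a fold of 19.8 and a p of 2.8e-06 in the list labelled SW480, beside a median fold of 19.5 in that list, and had no counterpart in the list labelled DLD-1 or the pooled list. The B2M peak lay 5179 bases from the 3′ end of the gene, introns included, and was annotated neither to coding sequence nor to a UTR. Which B2M transcript carried it is uncertain.

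HLA-E carried the most peaks. In the list labelled SW480 they lay at chr6:30491610-30492956 (fold 62.7), chr6:30493015-30493253 (96.5) and chr6:30493878-30494146 (3.19), and in the list labelled DLD-1 at chr6:30492419-30493224 (41.8) and chr6:30493343-30493670 (26.0), all annotated to the 3′ UTR on the plus strand. The peak of fold 62.7 held 328 bases in 4 blocks, and that of fold 41.8 held 537 bases in 3 blocks, so the annotation may not hold for every block. The DLD-1 peak of fold 41.8 overlapped 2 of the SW480 peaks, by 269 and 210 bases. The weakest of the 3 SW480 peaks, near the 3′ end, was in the lowest 2.21% of its list by fold, although its p was 5e-16.

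TAPBP had the same peak in both lists, chr6:33299724-33299933 on the minus strand, 210 bases in the 3′ UTR starting 30 bases from the end of the gene. Its fold was 8.98 in the SW480 list and 14.9 in the DLD-1 list, with listed p-values of 2e-56 and 6.3e-78. A further TAPBP peak in the list labelled SW480 (chr6:33300532-33300711) had a fold of 5.01. The TAP1 peak (chr6:32845777-32847299, 241 bases in 2 blocks, minus strand, coding sequence) had a fold of 7.63 and a p of 3.7e-08. It was listed for the library labelled SW480 alone among the 3 lists. TAP2 had peaks in the list labelled DLD-1, in the coding sequence (chr6:32838125-32838720, 181 bases in 2 blocks, fold 8.65) and in the 3′ UTR (chr6:32827354-32827474, fold 7.08). The listed false discovery rates were 0.0309 and 0.721, the weakest of the peaks on these genes. The coding peak was listed a further time for the overlapping gene AL669918.1, so the RNA that carried it is uncertain.

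By number, 3 of the 8 peaks in the list labelled SW480 overlapped a peak of the list labelled DLD-1 by at least 1 base on the same strand (55.3% of all 9536 peaks), and 2 of the 5 peaks in the list labelled DLD-1 overlapped a peak labelled SW480 (36.5% of all 13964). Annotated to 3′ UTRs were 6 of 8 and 4 of 5 peaks, beside 53.0% and 41.5% of the lists. The listed number of motif sites was above 0 in 5 of 8 and 3 of 5 peaks, beside 56.2% and 55.1%. HLA-B, B2M and TAP1 had a peak in the SW480 list and none in the DLD-1 list, and TAP2 the reverse. Genes at least 8-fold higher in the Inputs of 1 label in both tables, and at 5 FPKM or more there, were also counted. Of 199 such genes higher under the DLD-1 label, 43 hosted a peak in the SW480 list and 26 in the DLD-1 list. Of 134 higher under the SW480 label the numbers were 11 and 19. Of all genes at 1 FPKM or more, 39.5% and 41.7% hosted a peak in the SW480 and DLD-1 lists.

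**Figure D4:**
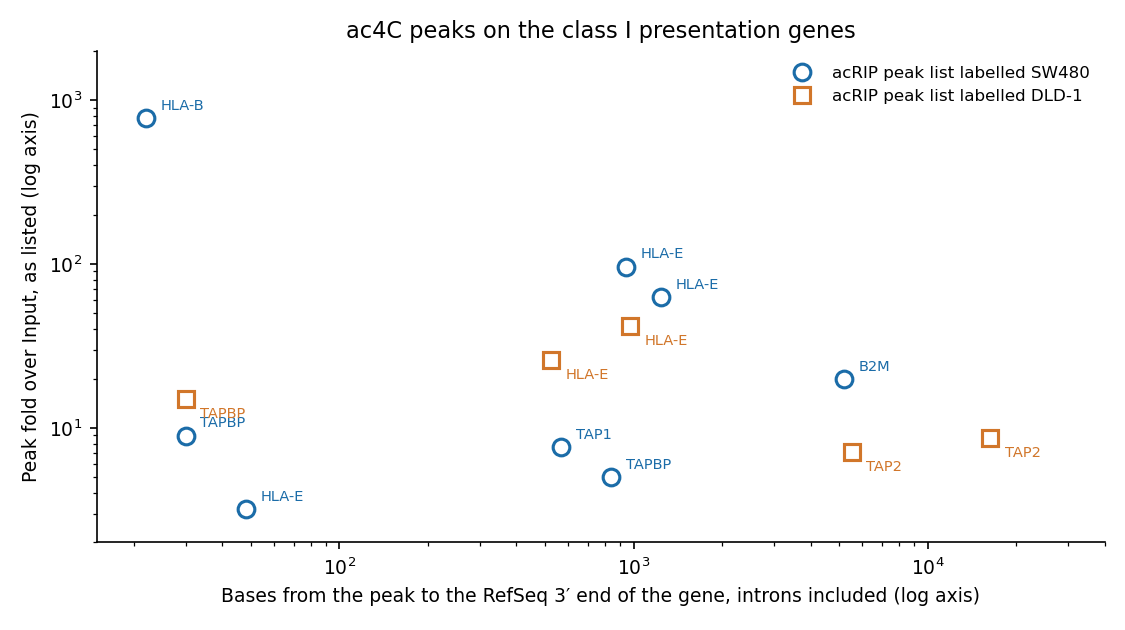
Fold over Input of each ac4C peak as listed by the authors (log axis) against the distance from the peak to the RefSeq 3′ end of its gene, introns included (log axis), for the list labelled SW480 (blue circles) and that labelled DLD-1 (orange squares). The HLA-B peak of fold 773 lies 22 bases from the gene end, and the TAPBP peaks of fold 8.98 and 14.9 lie at the same 30 bases.

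Related genes were read from lists named by function. Beside their counts, 15.1% of all genes were 2-fold higher and 20.9% lower in the Input labelled SW480. Between RIP libraries these shares were 14.4% and 9.6%. Peaks labelled SW480 and DLD-1 were hosted by 39.5% and 41.7% of all genes at 1 FPKM or more. Of the non-classical heavy chain genes HLA-F and HLA-G, HLA-F was at 31.1 and 13.1 FPKM in RIP and Input labelled SW480 and at 12.9 and 35.0 in those labelled DLD-1, and HLA-G stayed under 1 FPKM. HLA-F thus had the order of libraries seen in HLA-B in both comparisons, with a log2 difference of -1.35 between Inputs and 1.21 between RIP libraries. Neither hosted a peak in either list. Of the 4 genes of peptide loading and editing (CALR, CANX, PDIA3 and TAPBPL), 0 differed 2-fold between Inputs or between RIP libraries. PDIA3, a disulphide isomerase of the loading complex, was at 103 and 30.5 FPKM in RIP and Input labelled SW480 and at 83.4 and 34.7 in those labelled DLD-1. Its log2 ratios were 1.72 and 1.24 over the Input of the same label and 1.54 and 1.42 over that of the other label, so PDIA3 resembled B2M in being above both Inputs. Over the scaled acRIP-table Inputs it was at 0.97 and 0.60 for the same label, under 2-fold. Being above every Input was not particular to PDIA3 among the related genes. PSMB8 and LNPEP were among others above every Input of both tables, with lowest log2 ratios of 0.68 and 0.42.

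Transcription factors known to act on class I promoters stayed within 2-fold between Inputs. Of the 11 class I transcription factors, among them RFX5, NFYA and IRF1, all were above 1 FPKM in both Inputs and 0 differed 2-fold between Inputs, with a median log2 difference of -0.13. In RIP, 1 of 11, RFXAP, was 2-fold higher in the library labelled SW480. Within labels, 3 of 11 were above Input in SW480-labelled RIP (RFXAP, RFXANK and IRF1, beside 15.6% of all genes). In DLD-1-labelled RIP 1 of 11 was (NFYB, beside 15.1%). Below Input were 0 in either, beside 16% and 19.2% of all genes. Apart from HLA-F, PDIA3 and IFI27, genes of these lists that are singled out were named after their values were seen. They hosted peaks in 4 of 11 genes in the list labelled SW480 and 8 of 11 in that labelled DLD-1. Of the 4 genes for the interferon gamma receptor and its kinases, 1 (IFNGR2) was 2-fold lower in the Input labelled SW480, and the median log2 difference was 0.33. The 5 immunoproteasome and activator genes had 0 of 5 calls between Inputs and 0 of 5 between RIP libraries, while 4 and 3 of them hosted a peak in the lists labelled SW480 and DLD-1.

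Of 10 interferon-stimulated genes, 7 were above 1 FPKM in both Inputs, with 1 of 7 (OAS1) higher and 1 of 7 (IFI27) lower by 2-fold in the Input labelled SW480 and a median log2 difference of 0.032. IFI27 was at 14.3 and 1.35 FPKM in RIP and Input labelled SW480 and at 0.326 and 15.5 in those labelled DLD-1. It was thus arranged over the libraries as HLA-B was. Its log2 ratios were 2.70 and -3.64 over the Input of the same label and -0.11 and -0.82 over that of the other. OAS1 had the opposite arrangement, at 5.66 and 12.7 FPKM in RIP and Input labelled SW480 and at 20.5 and 1.63 in those labelled DLD-1. IFI6, at -0.99 between Inputs, fell just short of a call. None of the 10 hosted a peak in either list. Peptide trimming genes gave 1 of 3 (ERAP2) higher and 0 of 3 lower in the Input labelled SW480. The 6 NKG2D ligand genes gave 1 higher (ULBP2) and 3 lower (MICB, ULBP1 and RAET1L). Between the acRIP-table Inputs, ULBP2 (0.25), MICB (-0.69) and ULBP1 (-0.90) were under 2-fold. RAET1L was at -1.74 there and rested on 5 and 34 reads in the RIP-table Inputs labelled SW480 and DLD-1. Class II genes were low: 2 of 8 genes were above 1 FPKM in either Input, and CIITA, the class II counterpart of NLRC5, did not exceed 0.555 FPKM in any RIP or Input library.

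**Figure D5:**
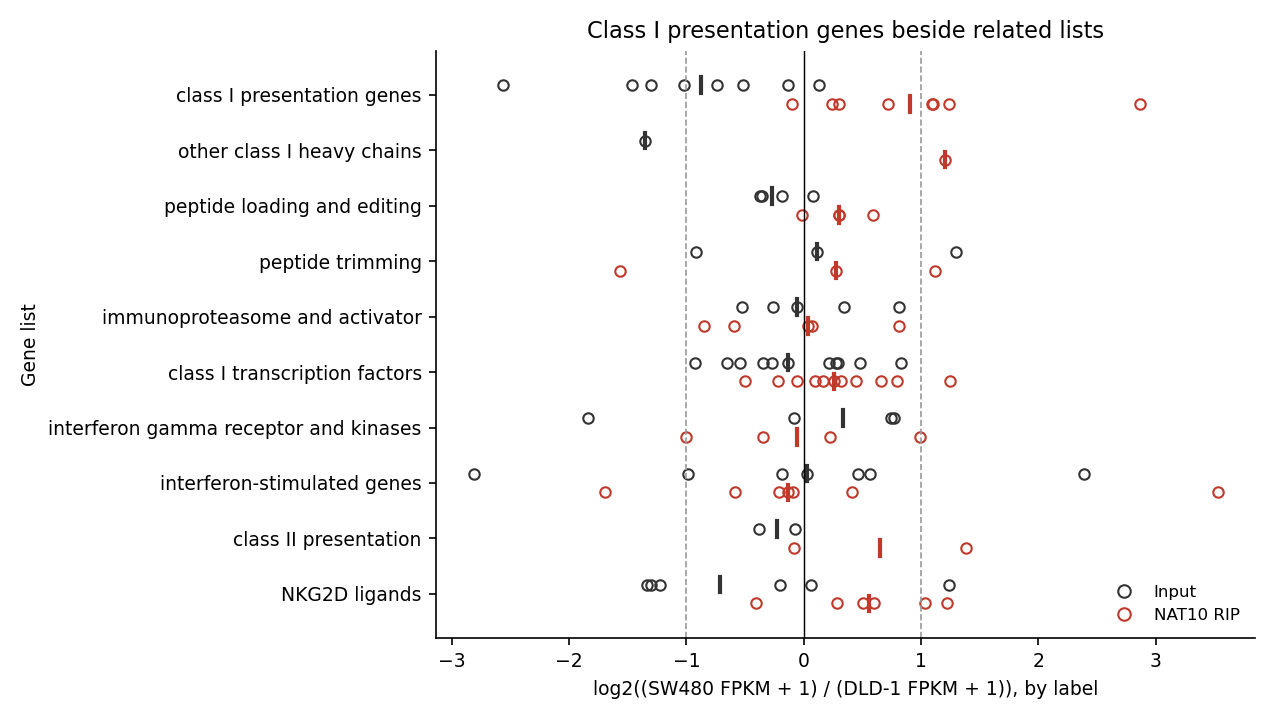
Log2 difference between the libraries labelled SW480 and DLD-1 in Input (black) and NAT10 RIP (red) for the class I presentation genes and related lists, 1 circle per gene at 1 FPKM or more in at least 1 Input, with a bar at each median and dashed lines at 2-fold. The medians of the 8 genes are -0.88 in Input and 0.91 in RIP, and those of the 11 transcription factors -0.13 and 0.26.

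Profiles most like the mean of HLA-B, HLA-C and HLA-E over the 4 RIP-table libraries were sought among 6396 protein-coding genes with at least 5 FPKM in each, by the root-mean-square difference of centred log2(FPKM + 1). The closest were GPX3 (0.015), MEPCE (0.044), SRGAP2 (0.045), TNFRSF1B (0.055) and MPHOSPH8 (0.062). GPX3, a secreted glutathione peroxidase, was at 40.8 and 16.7 FPKM in RIP and Input labelled SW480 and at 13.1 and 47.9 in those labelled DLD-1. Of the class I genes tested, TAP1 ranked 919 (0.56), TAPBP 3002 (0.81) and B2M 3886 (0.90), so B2M was farther from the heavy chain profile than most of the genes compared. The measure rests on 4 libraries and gives no ground for a shared function.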

How the data were processed

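RIP-seq, acRIP-seq and Input libraries of SW480 and DLD-1 (6 groups, 1 library each, grouped by their titles) were analysed from deposited tables. Per the submitters' processing notes, cutadapt 2.5 and HISAT2 2.1.0 were used, with GRCh38 for these human reads. The counter, peak caller and Input assignment are not given in the sources used here. The authors deposited FPKM per gene for RIP and Input, an expression table for the acRIP Inputs whose unit is not named and was read as FPKM, and peak lists with p-values, false discovery rates on a log10 scale, fold over Input and a count of motif sites (a score per peak). The authors' own ratio columns of RIP against Input were not used. The study's text names an IgG control for RIP, whereas the labels and table name Input, which was used.

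Ratios were taken as log2 with a pseudocount of 1 FPKM, over genes with at least 1 FPKM in both Inputs, and called at 2-fold. No test was made. Relative depths (1, 0.493, 0.850 and 0.456 for RIP and Input labelled SW480, then DLD-1) and the smallest whole reads were solved from the ratios of FPKM values within a gene, within a tolerance of 0.003, for 23494 of 23515 genes above 0 in at least 2 libraries. The solver was tested on simulated data. Reads may be a multiple of these, which would make counting errors smaller, whereas PCR copies would make them larger. The acRIP Inputs could not be solved and carry no counting error. Peaks were matched to genes by the authors' annotation and checked by position. The 8 genes and the related lists were chosen with earlier results of these data known. Some genes of the related lists are not reported here. All 8 were named with their values, as were related genes that RIP moved 2-fold over either Input in both lines, whose Inputs differed 4-fold in both tables, or that stood alone above 1 FPKM in their list. Alternatives covered the Input library and table, pseudocount, filter, centring, peak threshold and overlap. Python 3.11.15, numpy 2.4.6, pandas 2.3.3 and matplotlib 3.10.9 were used.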

Additional observations from a re-analysis of the deposited data

Results flagged for a closer look

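RIP over Input had opposite signs under the 2 labels for 5 genes, a difference between labels that was not tested, since each group holds 1 library. The log2 ratio labelled SW480 minus that labelled DLD-1 was 5.43 for HLA-B, 2.11 for HLA-C, 1.46 for HLA-E, 0.82 for TAP1 and 2.56 for NLRC5. Over the Inputs of the other label the same differences were 0.31, 0.074, -0.017, -0.22 and -0.36.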

How the results depend on the processing

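With Inputs exchanged between labels, in the RIP table as in the acRIP table, genes at least 2-fold above Input numbered 1 of 8 in RIP labelled SW480 and 1 of 8 in RIP labelled DLD-1, and genes below Input in RIP labelled DLD-1 numbered 0 of 8. Over the acRIP-table Input of the same label, 4 of 8 were above Input in RIP labelled SW480, TAP2 and NLRC5 being added. The acRIP-table Inputs gave 2 of 8 genes lower in the library labelled SW480. With a p under the median of its list, genes hosting a peak fell to 3 in the list labelled SW480 and peaks to 3 in that labelled DLD-1. Signs of called ratios turned with the exchanged acRIP-table Inputs alone, to -0.035 for HLA-B in RIP labelled SW480 and to 0.060 for HLA-B and 0.46 for NLRC5 in RIP labelled DLD-1. The cause was not tested. The other counts of genes and peaks stayed within 1.5 times the reported count. Centring lowered all 16 ratios, by at most 0.18, the shift of the median protein-coding gene labelled SW480, and a pseudocount of 0.1 FPKM changed 0 of 16 signs. No paired analysis was possible because each group holds 1 library. Counting error limits TAP2 and NLRC5 most, at 188 to 972 reads per library.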
